A study of Homo sapiens with 21 samples.

Results

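The messages of cells edited at JDP2 were compared with those of control cells in THP1, an established human line derived from acute monocytic leukemia. The JDP2 knockout (JDP2 KO) group held 4 RNA sequencing libraries, 2 from each of 2 clones. Each clone is the progeny of a single cell taken by limiting dilution after transfection with a Lenti-CRISPRv2 construct, so a clone also carries whatever was particular to its founder cell. The controls held 5 libraries of 3 kinds, with 2 of KO Control, 2 of shRNA Control (replicates 1 and 3) and 1 of WT (replicate 2). The labels give no detail of the KO Control beyond that name, and name no stimulus for any group. These 9 libraries, taken by their labels, are 9 of the 19 in the deposited table. Of 20423 genes, 12541 were tested, namely those whose normalized counts averaged at least 10 in these libraries.

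JDP2 is a basic leucine zipper factor of the AP-1 family. It pairs with JUN and ATF proteins, binds AP-1 and cAMP response elements, and is known mainly as a repressor that competes with activating AP-1 dimers. The study's title sets the ATF7 and JDP2 heterodimer against IRF2BP2, a corepressor, in the control of inflammatory genes in leukemia cells. The comparison asks which messages differ in cells edited at JDP2.

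A normalized count is the number of reads in a gene divided by 1 size factor per library. Reads in genes numbered 29.1 to 60.2 M (mega) per library, with a median of 36.2 M, and 14620 to 18490 genes had a read. JDP2 KO clone 1 replicate 2 stood apart. There 34.7% of genes were over 2-fold away from the 9-library median, against 2.85% to 7.30% in the other 8. Its deviation from the median of the 5 controls followed transcript base composition. The median log2 deviation was 1.21 in the richest of 5 equal bins of genes by G and C content and -0.47 in the poorest. In the other libraries the bins' medians lay between -0.45 and 0.45. Results that rest on this library are given with and without it.

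**Figure D1:**
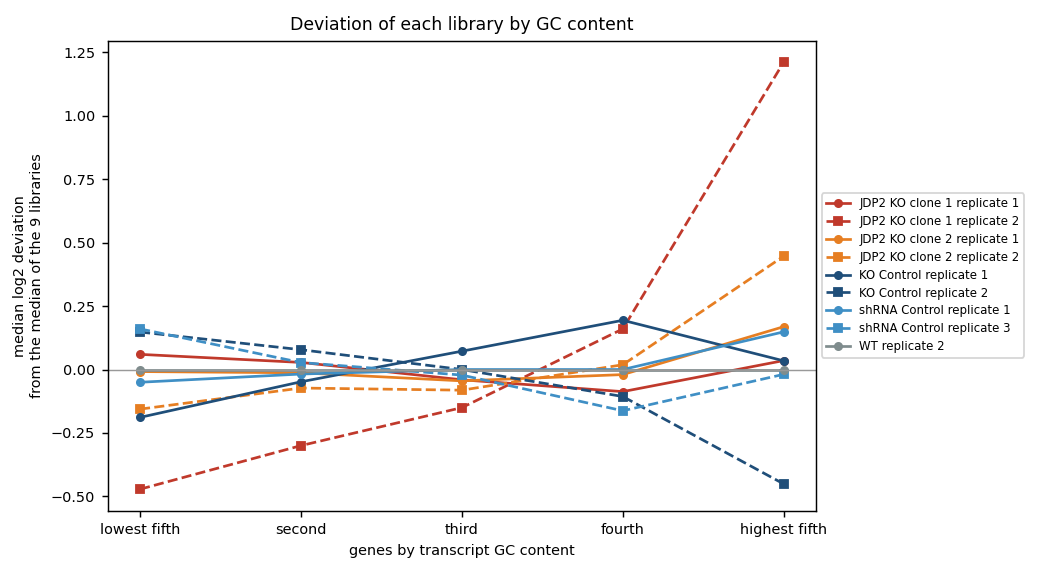
Median deviation of each of the 9 libraries from the median of the 5 controls (log2 scale, vertical axis). The horizontal axis holds 5 equal bins of the tested genes ordered by transcript GC content. The axis label names the 9 libraries, but the reference was the median of the 5 controls. JDP2 KO clone 1 replicate 2 lies at -0.47 in the lowest bin and at 1.21 in the highest, while the other lines stay between -0.45 and 0.45.

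The cells were checked against monocytic markers. All 8 were present with a mean of at least 10 in the JDP2 KO libraries and 7 in the controls, and their summed normalized count was 32255 to 64034 in JDP2 KO against 28263 to 95839 in the controls. The members did not move together. CD68, CD33 and CSF1R were called lower, while SPI1, the myeloid transcription factor PU.1, had 13312 to 45680 in JDP2 KO and 7155 to 12900 in the controls without passing the test (limma adjusted p = 0.0895). CD14 itself was near the floor in both groups, at 2.24 to 37.3 in JDP2 KO and 3.75 to 16.3 in the controls. Of the lymphoid markers, the T cell receptor genes CD3D, CD3E and CD3G and the B cell gene MS4A1 stayed under 10 in every library. The summed lymphoid level was 8213 to 12301 in JDP2 KO and 12460 to 17753 in the controls, carried mostly by NKG7, which missed the threshold (limma adjusted p = 0.0773). Epithelial and stromal markers summed to 997 to 1284 in JDP2 KO and 1108 to 1623 in the controls. Most of that sum was PECAM1, at 763 to 1204 in JDP2 KO and 855 to 1522 in the controls. KRT18, KRT19 and DCN stayed under 10 in every library. Erythroid and megakaryocyte markers summed to at most 194 in any library, with PF4 at 0 throughout. The part of these shifts in the results below was not tested. In bulk RNA, fewer cells of a type and less message per cell cannot be told apart.

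The targeted gene did not differ in level. JDP2 (chromosome 14, 75427716 to 75474111, plus strand, GRCh38) had 3158 and 5693 normalized counts in JDP2 KO clone 1 and 4652 and 5368 in clone 2, against 5085 and 3438 in KO Control, 5004 and 2966 in shRNA Control and 3560.4 in WT. The groups overlap. The log2 change was 0.23 ± 0.24 (SE), which did not pass the test (limma adjusted p = 0.544). Since an edit that disrupts the reading frame need not remove the transcript, this level does not check the labels. The heterodimer partner ATF7 had 168 to 307 in JDP2 KO and 210.0 to 537 in the controls (log2 change -0.48 ± 0.30, limma adjusted p = 0.317).

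Calls were found in both directions, and whether rises or falls were more numerous depended on the fit. By limma on log2(normalized count + 1), 493 of 12541 genes (3.93%) passed a Benjamini-Hochberg adjusted p of 0.05, of which 161 (1.28%) were higher and 332 (2.65%) lower. An unadjusted p under 0.05 was reached by 3384 genes. The median log2 change was 1.10 among genes that rose and -1.26 among those that fell, against -0.02 over all genes tested. More than 2-fold changes numbered 102 up and 257 down, and more than 4-fold changes 11 up and 44 down. All 4 JDP2 KO libraries lay outside the range of the 5 controls for 149 of the genes that rose and 323 of those that fell. Of all tested genes, 7.58% and 6.40% did so in each direction. The genes were called with these same libraries, so their separation is no further support. The count of calls depended on single libraries. It was 139 without KO Control replicate 2, 165 and 166 when replicate 3 or replicate 1 of shRNA Control was dropped, 172 without WT replicate 2, 184 and 215 without replicates 1 and 2 of JDP2 KO clone 2, and 1186 without JDP2 KO clone 1 replicate 1. It was 538 without JDP2 KO clone 1 replicate 2, with 423 of the 493 among them. Scaling each library to an equal total, which moves the median of all genes to -0.26, gave 109 higher and 498 lower. The excess of falls was turned round by DESeq2 on recovered reads (1169 higher and 842 lower), by limma with clone or kind of control as a random block (1478 and 1196), by limma on 1 mean for each clone and kind of control (1230 and 907), with array weights (2233 and 2204) and without JDP2 KO clone 1 replicate 1 (612 and 574).

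Among the 332 genes that fell, the median log2 difference of JDP2 KO was -1.40 from KO Control, -1.19 from shRNA Control and -1.11 from WT. Among the 161 that rose it was 1.11 from KO Control, 1.11 from shRNA Control and 1.12 from WT. The genes were called with these libraries, so the direction of these medians is fixed by that choice. With the 2 KO Control libraries as the only controls, 32 genes were called, 31 of them lower, and 23 of the 493 were among them.

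The authors' deposited table for this comparison calls more genes. It lists 1489 of 12324 genes (12.1%) at an adjusted p under 0.05, with 931 higher and 558 lower in the JDP2 knockout. Its base means equal the means of all 19 libraries, so its values were made with libraries beyond the 9 compared here.

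Several of the largest falls left almost no message. PRDX2, a peroxiredoxin that removes hydrogen peroxide (chromosome 19, 12796820 to 12801859, minus strand, GRCh38), had 0 and 82.0 normalized counts in JDP2 KO clone 1 and 8.32 and 20.2 in clone 2, against 1604 and 1353 in KO Control, 3952 and 2894 in shRNA Control and 2885 in WT. Every JDP2 KO library was far below every control. The log2 change was -7.70 ± 0.92 (SE; limma adjusted p = 0.00199). GNA11, a G protein alpha subunit that couples receptors to phospholipase C, had 8.43 and 31.7 in clone 1 and 33.9 and 24.7 in clone 2, against 380.3 and 221 in KO Control, 1121 and 705 in shRNA Control and 949 in WT (log2 change -4.65 ± 0.50, limma adjusted p = 0.00118). Within the controls, KO Control was the lowest kind for both genes. With KO Control as the only controls neither was called (limma adjusted p = 0.0795 for PRDX2 and 0.0504 for GNA11). NBDY, which encodes a small protein of processing bodies, gave 2 reads in the 4 JDP2 KO libraries together, against 592 reads in the 5 controls. That is 0.468% of the control level, with a 95% interval of 0.0565% to 1.70% (exact Clopper-Pearson, counting error only).

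CERS1, a ceramide synthase, stood at 7.68 to 50.3 in JDP2 KO and 112 to 518 in the controls. The homeobox gene PBX4 had 0 to 11.2 in JDP2 KO and 19.7 to 102 in the controls. OLFM2, an olfactomedin, fell with a log2 change of -3.87 ± 0.78 (limma adjusted p = 0.0217). PICK1, a scaffold protein with a PDZ domain, had 41.0 in JDP2 KO clone 1 replicate 2 and under 1 in the other 3 JDP2 KO libraries, against 51.3 to 151 in the controls. PCYT1B, an enzyme of phosphatidylcholine synthesis, had 0 to 11.2 in JDP2 KO and 21.7 to 159 in the controls. P4HTM, a transmembrane prolyl hydroxylase, had 2.24 to 11.2 in JDP2 KO and 19.6 to 97.5 in the controls. Log2 changes of such low genes depend on the added 1. Among the controls, both KO Control libraries were the lowest for CERS1, PBX4, OLFM2, PICK1, PCYT1B and P4HTM. With KO Control as the only controls none of these genes was called. Their limma adjusted p then ran from 0.203 for CERS1 to 0.385 for P4HTM. Of the 10 largest falls, 5 lie on chromosome 19 (PRDX2, PBX4, GNA11, CERS1 and OLFM2). Over that chromosome 37 of 990 tested genes fell (3.74%) and 3 rose (0.303%), against 2.65% and 1.28% of all tested genes. The share of falls was highest on chromosome 14 (4.35%). The 5 named genes of chromosome 19 are set against ATF7 KO below.

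Of the 493 calls, NDUFB4 and CCL5 alone were kept under all 25 alternatives. NDUFB4, a subunit of respiratory complex I (chromosome 3, 120596309 to 120602500, plus strand), had 883 and 996 in JDP2 KO clone 1 and 918 and 716 in clone 2, against 10756 and 12281 in KO Control, 8353 and 6811 in shRNA Control and 3417 in WT. Its log2 change was -3.13 ± 0.32 (SE; limma adjusted p = 0.00108). CCL5, a chemokine that attracts T cells and monocytes (chromosome 17, 35871491 to 35880793, minus strand), had 610.4 and 628 in clone 1 and 699 and 822 in clone 2, against 5230.2 and 4774 in KO Control, 4428 and 3405 in shRNA Control and 2984 in WT. Its log2 change was -2.57 ± 0.21 (SE; limma adjusted p = 0.000241). The 4 JDP2 KO libraries were close together and every control was far above them for both genes. Over those alternatives the log2 change stayed between -3.72 and -2.74 for NDUFB4 and between -2.86 and -2.42 for CCL5. Chosen after their values were seen, SF3B5, a spliceosome subunit, had 884 to 1995 in JDP2 KO against 6302 to 15012 in the controls, and ICAM2, an adhesion molecule of leukocytes and endothelium, had 15.8 to 26.2 in JDP2 KO against 106 to 284 in the controls.

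MMP9 kept its call under all but 1 alternative and lost it with KO Control as the only controls (limma adjusted p = 0.0769). It encodes a secreted gelatinase, is a classical AP-1 target (chromosome 20, 46008908 to 46016561, plus strand), and had 1492 and 3297 in JDP2 KO clone 1 and 2418 and 2680.0 in clone 2, against 753 and 461 in KO Control, 231 and 196 in shRNA Control and 749 in WT. The groups do not overlap, and the log2 change was 2.53 ± 0.41 (SE; limma adjusted p = 0.00781). AMPH, a membrane-bending protein of endocytosis, had 84.3 and 65.3 in clone 1 and 76.8 and 90.9 in clone 2, against 16.3 and 12.5 in KO Control, 9.95 and 7.50 in shRNA Control and 25.4 in WT. LIMS2, an adaptor of integrin adhesions, had 287 and 1952 in clone 1 and 764 and 1560.4 in clone 2, against 131 to 214 in the controls. In both genes the lowest JDP2 KO library was above the highest control. Neither was called with KO Control as the only controls (limma adjusted p = 0.0751 for AMPH and 0.152 for LIMS2).

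CD226, an activating receptor of lymphocytes and monocytes, had 81.2 to 197 in JDP2 KO and 14.8 to 46.1 in the controls. IQSEC3, an exchange factor for ARF proteins, had 135 to 279.7 in JDP2 KO and 17.1 to 57.2 in the controls. ZG16B, a secreted lectin, had 44.9 to 186 in JDP2 KO and 1.87 to 17.4 in the controls. GPS2, a subunit of the NCoR and SMRT corepressor complex, overlapped between groups, with 241 to 531 in JDP2 KO against 12.5 to 252 in the controls, and so did TXNDC5, a disulfide isomerase, with 992 to 2525 against 134 to 1080.2. VCX3A had 280.4 to 2708 in JDP2 KO and 99.3 to 244 in the controls, and ZFTRAF1 had 123 to 653 in JDP2 KO and 28.96 to 118 in the controls. The calls of GPS2 (limma adjusted p = 0.0491) and ZFTRAF1 (0.0392) were lost without JDP2 KO clone 1 replicate 2, at 0.0698 and 0.0521. IQSEC3 kept its call with KO Control as the only controls (limma adjusted p = 0.0494). CD226, ZG16B, GPS2, TXNDC5, VCX3A and ZFTRAF1 were not called there, with limma adjusted p from 0.215 for ZG16B to 0.376 for VCX3A.

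**Figure D2:**
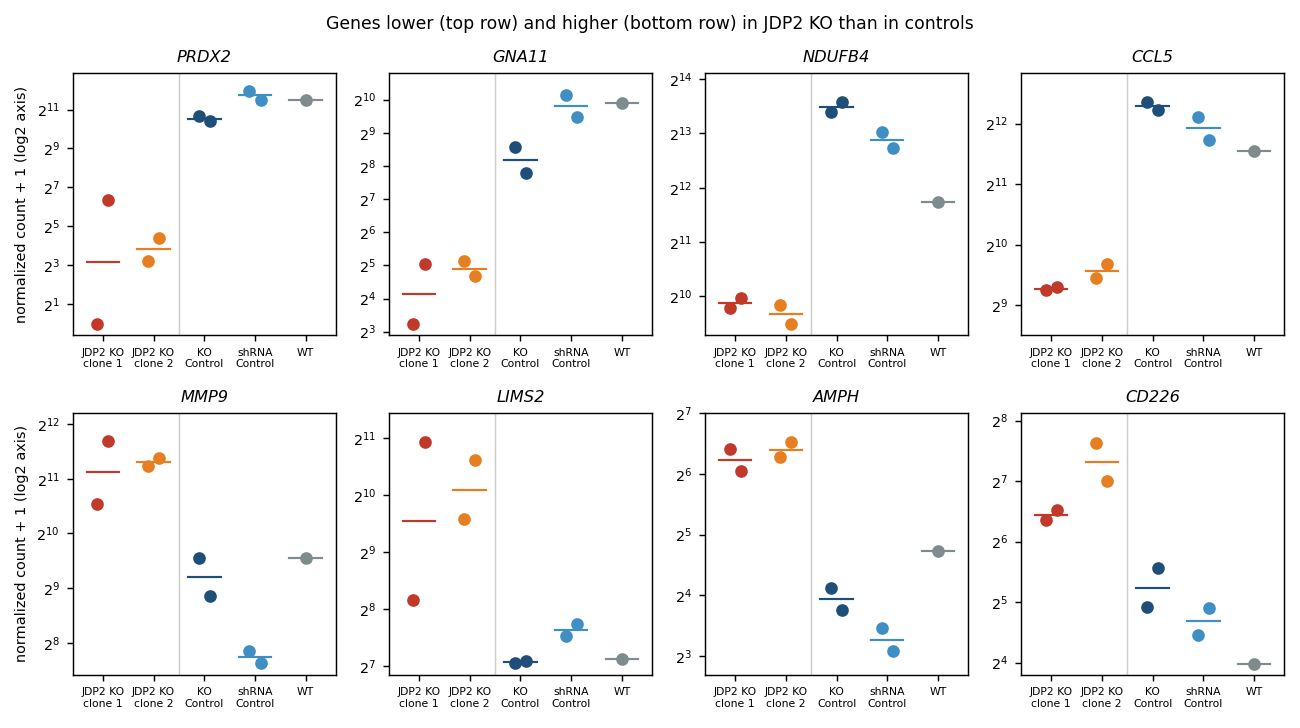
Normalized count + 1 (log2 axis) of 4 genes that fell (top row) and 4 that rose (bottom row), with 1 point per library and a line at the mean of the log2 values in each clone or kind of control. For all 8 genes every JDP2 KO library lies beyond every control library.

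Of 69 called genes that are named here, 22 kept their call whichever single library was left out. These were PRDX2, NBDY, PBX4, GNA11, PCYT1B, CERS1, NDUFB4, SF3B5, ICAM2, CCL5, IFITM2, CIITA, RFX5, CD33, NLRP3, SDHA, RPL3 and RPL10A among the falls, and MMP9, LIMS2, AMPH and IQSEC3 among the rises. Between 2 and 44 of the 69 lost their call without a given library, with the most lost without WT replicate 2 (44), KO Control replicate 2 (42) and shRNA Control replicate 3 (41). Without JDP2 KO clone 1 replicate 2, 8 were lost.

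**Figure D3:**
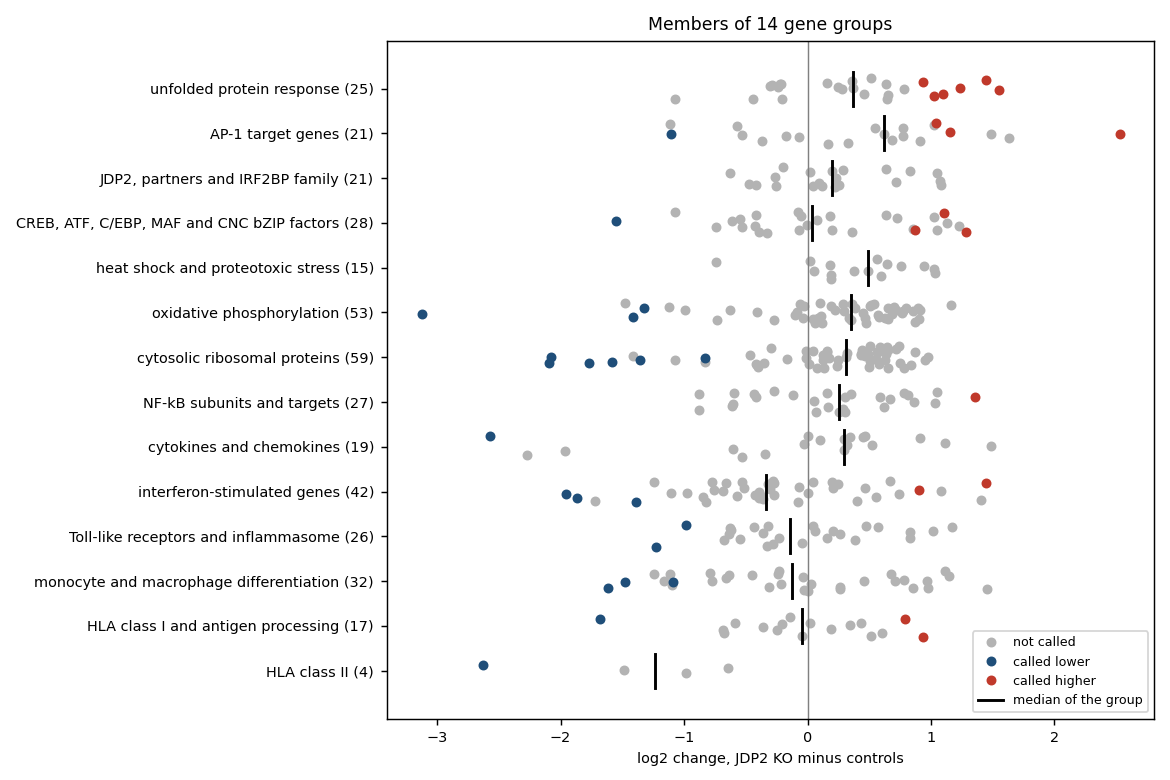
Log2 change in JDP2 KO relative to the controls (horizontal axis) of each tested member of 14 gene groups, with the number tested in brackets. Red and blue points passed the limma threshold, grey points did not, and the black line is the median of the group, which runs from -1.23 for HLA class II to 0.62 for AP-1 targets.

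The factors that pair with JDP2 did not pass the test in the main fit. Of 21 genes covering JDP2, its dimer partners and the IRF2BP family, 0 were called by limma there or by edgeR. The median log2 change was 0.20, which is -0.05 with equal totals, and 15 of the 21 changes were positive. BATF3, IRF2BPL, BATF and IRF2BP1 came nearest to the threshold. Their log2 changes were 1.08, 0.71, 1.05 and 1.08 (limma adjusted p = 0.0633, 0.0638, 0.0694 and 0.0722). Limma called BATF3 and IRF2BPL with quantile normalization, and BATF and IRF2BPL without JDP2 KO clone 1 replicate 1. JUNB had 6664 to 15524 in JDP2 KO and 2759 to 7811 in the controls (log2 change 0.83 ± 0.32, limma adjusted p = 0.128), with its highest value in JDP2 KO clone 1 replicate 2. IRF2BP2 had 17839.8 to 27436 in JDP2 KO and 14859 to 21364 in the controls, and did not pass the test (limma adjusted p = 0.366). None of 26 immediate early genes was called either, with a median of 0.27.

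Among 28 other leucine zipper factors, 3 rose and 1 fell (14.3% called, against 3.93% of all tested genes). CREM, which binds cAMP response elements, had 694 to 1074 in JDP2 KO and 369.9 to 579 in the controls (log2 change 0.87 ± 0.21, limma adjusted p = 0.0415). MAFK, a small MAF protein that pairs with NRF2 and BACH1, had 5447 to 6968 in JDP2 KO and 1758 to 4319 in the controls (limma adjusted p = 0.0418). CEBPB, a factor of monocyte differentiation and inflammation, had 11448 to 31665 in JDP2 KO and 4757 to 10694 in the controls (limma adjusted p = 0.0462). ATF6B, an endoplasmic reticulum stress sensor, fell to 2008 to 6309.6 in JDP2 KO, against 9806 to 15996 in the controls (log2 change -1.55 ± 0.32, limma adjusted p = 0.0249). With the trend on GC content removed, MAFK and CEBPB missed the threshold, with adjusted p of 0.163 and 0.0976, and without JDP2 KO clone 1 replicate 2 CEBPB did (0.0538).

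Of 21 AP-1 target genes, 3 rose and 1 fell (19.05% called, against 3.93% of all tested genes), with a median of 0.62, and of 0.23 without JDP2 KO clone 1 replicate 2. Beside MMP9, LMNA, the nuclear lamin A and C gene, had 24261 to 42889 in JDP2 KO and 10059 to 17003 in the controls (log2 change 1.04 ± 0.23, limma adjusted p = 0.0338). ANXA1, an annexin that limits inflammation, had 459 to 710.3 in JDP2 KO and 153 to 401 in the controls (limma adjusted p = 0.0424). TIMP1, an inhibitor of matrix metalloproteinases, fell to 2547 to 5546 in JDP2 KO, against 8021 to 12539 in the controls (log2 change -1.11 ± 0.25, limma adjusted p = 0.0356).

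The inflammatory lists held 4 calls between them. The share called was 5.26% of cytokines and chemokines, 3.70% of NF-kB genes and 7.69% of Toll-like receptor and inflammasome genes, against 3.93% of all tested genes. Of 19 cytokine and chemokine genes, CCL5 fell and none rose. The neutrophil chemokine CXCL8 and the monocyte chemokine CCL2 had means of 94.5 and 633 in JDP2 KO and 30.1 and 217 in the controls, and neither passed the test (limma adjusted p = 0.153 and 0.282). Of 27 NF-kB genes, only the subunit RELB was called. It had 785 to 2721 in JDP2 KO and 412 to 919 in the controls, an overlap (limma adjusted p = 0.0474). RELB missed the threshold without JDP2 KO clone 1 replicate 2 (adjusted p = 0.0572) and with the GC trend removed (0.176). Of 26 Toll-like receptor and inflammasome genes, the sensors NLRP3 and NLRP1 fell. NLRP3 had 407 and 330.1 in JDP2 KO clone 1 and 426 and 380.3 in clone 2, against 726 and 760.3 in KO Control, 802 and 826 in shRNA Control and 694 in WT. The values within each group lay close together, and the log2 change was -0.98 ± 0.17 (SE; limma adjusted p = 0.0114). NLRP1 had 80.2 to 109 in JDP2 KO and 141 to 303 in the controls (limma adjusted p = 0.0258). Neither sensor was called with KO Control as the only controls (limma adjusted p = 0.245 for NLRP3 and 0.231 for NLRP1).

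Interferon-stimulated genes moved in both directions. Of 42 tested, 3 fell and 2 rose (11.9% called, against 3.93% of all tested genes), and the median log2 change was -0.34. IFITM2, an endosomal antiviral protein, had 1562 and 1387 in JDP2 KO clone 1 and 1239.5 and 1098 in clone 2, against 6754 and 8720.1 in KO Control, 4576 and 3805 in shRNA Control and 3302 in WT (log2 change -1.95 ± 0.28, limma adjusted p = 0.00425). IFI35 had 22.4 to 59.5 in JDP2 KO and 105 to 264 in the controls, and the antiviral restriction factor SAMD9 had 83.0 to 207 in JDP2 KO and 199.9 to 456 in the controls, an overlap. ISG15, a ubiquitin-like modifier, rose, with 1584 to 7338 in JDP2 KO and 818 to 1168 in the controls, and its highest value was in JDP2 KO clone 1 replicate 2. IFIT3 had 153 to 236 in JDP2 KO and 98.7 to 134 in the controls.

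CIITA, RFX5 and RFXANK, which act on MHC class II promoters, fell, while the RFX subunit RFXAP did not pass the test. CIITA, the master coactivator of these genes (chromosome 16, 10866222 to 10943021, plus strand), had 32.7 and 22.4 in JDP2 KO clone 1 and 88.9 and 158 in clone 2, against 280.4 and 369.9 in KO Control, 372 and 389.8 in shRNA Control and 388 in WT. Every JDP2 KO library was below every control, and clone 1 was below clone 2. The log2 change was -2.63 ± 0.46 (SE; limma adjusted p = 0.0114). It was -3.68 in clone 1 and -1.58 in clone 2, and the difference between the clones, 2.09, passed its own test (limma adjusted p = 0.0404). CIITA acts with the RFX complex on class II promoters. The RFX subunits were looked up after the list results were seen. RFX5 had 786 and 572 in clone 1 and 889 and 1200.3 in clone 2, against 2458 and 3565 in KO Control, 2205 and 2166 in shRNA Control and 1798 in WT (log2 change -1.51 ± 0.25, limma adjusted p = 0.00851). RFXANK had 1458 to 2143 in JDP2 KO and 2933 to 4259 in the controls (log2 change -0.92 ± 0.20, limma adjusted p = 0.0315). CIITA, RFX5 and RFXANK were not called with KO Control as the only controls (limma adjusted p = 0.244, 0.0791 and 0.310). The remaining subunit, RFXAP, was above every control, with 829 to 972 in JDP2 KO and 539.7 to 821 in the controls, and did not pass the test (log2 change 0.46 ± 0.18, limma adjusted p = 0.136).

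Only 4 of 12 HLA class II genes were expressed enough to be tested, and CIITA was the 1 that passed (25%, against 3.93% of all tested genes). CD74, the invariant chain, averaged 1006 ± 326 in JDP2 KO (SD, n = 4) and 1932 ± 464 in the controls (SD, n = 5), with a limma adjusted p of 0.0586, which was under the threshold without JDP2 KO clone 1 replicate 2. HLA-DRB1 averaged 197 ± 154 in JDP2 KO and 454 ± 164 in the controls (limma adjusted p = 0.0757). Reads of HLA-DRB1 and HLA-DRB5 can be shared between these near-identical genes. Of 17 class I and antigen processing genes, 2 rose and 1 fell (17.65% called, against 3.93% of all tested genes). The nonclassical HLA-F fell, with 39.0 to 116 in JDP2 KO and 160.0 to 301 in the controls. The peptide-loading chaperones CALR and PDIA3 rose.

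A few myeloid genes fell. Of 32 monocyte and macrophage genes, 3 fell (9.38%, against 2.65% of all tested genes) and none rose, with a median of -0.13. SPI1, given above with the markers, lay above every control without a call. CSF1R, the receptor for macrophage colony-stimulating factor, had 79.1 and 54.1 in JDP2 KO clone 1 and 80.0 and 29.2 in clone 2, against 193 and 168 in KO Control, 156 and 143 in shRNA Control and 137 in WT. The groups do not overlap, and the log2 change was -1.48 ± 0.31 (SE; limma adjusted p = 0.0271). FCGR2A, a receptor for antibody Fc, had 245 to 374 in JDP2 KO and 473 to 892 in the controls. CD68, a macrophage lysosomal protein, had 630.4 and 613 in clone 1 and 1780.2 and 1772 in clone 2, against 1813 to 4856 in the controls. The clone 2 values came next to the lowest control, and the call (limma adjusted p = 0.0474) was lost without JDP2 KO clone 1 replicate 2 (0.0674). CD33, a sialic acid receptor of myeloid leukemia cells, had 904 and 639.6 in clone 1 and 582 and 512 in clone 2, against 1658 and 1282 in KO Control, 1489.8 and 1277 in shRNA Control and 1267 in WT (log2 change -1.10 ± 0.20, limma adjusted p = 0.0140). It was the only gene called among 27 leukemia stem and progenitor genes (3.70%, near the 3.93% of all tested genes). CAMP, the cathelicidin of granules, had 11.2 to 46.4 in JDP2 KO and 65.7 to 249.9 in the controls. CAMP was the only call among 17 granule genes (5.88%, against 3.93% of all tested genes). CD4, which monocytes also carry, had 1611 to 3369.8 in JDP2 KO and 4919 to 6153 in the controls. It was the only call among 8 lymphoid genes (12.5%, against 3.93%).

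**Figure D4:**
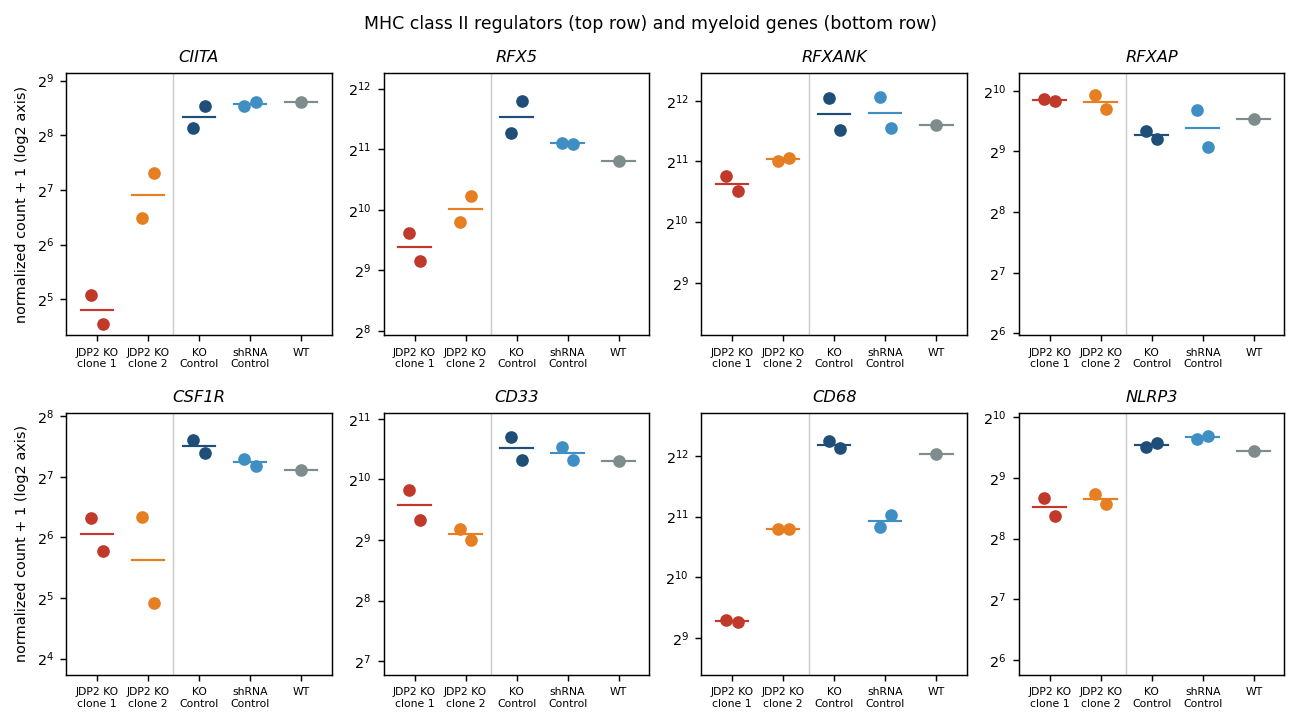
Normalized count + 1 (log2 axis) of CIITA and the 3 RFX subunits (top row) and of 4 myeloid genes (bottom row), with 1 point per library and a line at the mean of the log2 values. CIITA is lowest in JDP2 KO clone 1 at 22.4 and 32.7, CD68 in clone 2 reaches 1780.2 against 1813 in the lowest control, and RFXAP lies at or above the controls.

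Part of the unfolded protein response rose. Of 25 genes tested, 6 rose (24%, against 1.28% of all tested genes) and none fell, and the median log2 change was 0.37, or 0.13 with equal totals. SDF2L1, an endoplasmic reticulum chaperone cofactor, had 4822 and 11032 in JDP2 KO clone 1 and 6155 and 4763 in clone 2, against 4497 and 1742 in KO Control, 2028 and 1295 in shRNA Control and 2184 in WT (log2 change 1.55 ± 0.35, limma adjusted p = 0.0329). KO Control replicate 1 came close to the lowest JDP2 KO library. MANF, a secreted stress-induced factor, had 6266 to 10774 in JDP2 KO and 2754 to 6083 in the controls (log2 change 1.24 ± 0.27, limma adjusted p = 0.0279). CRELD2 had 4395 to 11834 in JDP2 KO and 1555 to 4447 in the controls, an overlap. CALR, the calcium-binding chaperone calreticulin, had 155977 to 283525 in JDP2 KO and 82482 to 127254 in the controls. DNAJB11, a cochaperone, and SEC61B, a subunit of the translocation channel, rose with log2 changes of 1.03 ± 0.25 and 1.10 ± 0.25 (limma adjusted p = 0.0418 and 0.0356). The central chaperone HSPA5 averaged 35783 ± 10583 in JDP2 KO (SD, n = 4) and 20881 ± 6601 in the controls (SD, n = 5), without passing the test (limma adjusted p = 0.0926). Without JDP2 KO clone 1 replicate 2, 6 of the 25 were again called, with HSP90B1 in place of CALR. All 6 of the main calls were lost without WT replicate 2, without either shRNA Control replicate, without KO Control replicate 2 and without JDP2 KO clone 2 replicate 1. With the GC trend removed SDF2L1 missed the threshold (adjusted p = 0.111). Of 32 integrated stress response genes only CEBPB was called (3.125%, near the 3.93% of all tested genes). Of 15 heat shock genes none was called by limma or edgeR, with a median of 0.49.

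A few subunits of the respiratory chain and the ribosome fell. Of 53 oxidative phosphorylation genes, 3 fell (5.66%, against 2.65% of all tested genes) and none rose, and the median was 0.35, or 0.10 with equal totals. Beside NDUFB4, SDHA, the flavoprotein of complex II, had 160.4 to 244 in JDP2 KO and 383 to 619 in the controls (log2 change -1.33 ± 0.21, limma adjusted p = 0.00685). NDUFA6 of complex I had 526 to 2094 in JDP2 KO and 2523 to 3561 in the controls. Of 59 cytosolic ribosomal protein genes, 6 fell (10.2%, against 2.65%) and none rose, and the median was 0.31, or 0.06 with equal totals. RPL10A had 11364 and 18843 in clone 1 and 11293 and 10734 in clone 2, against 60984 and 44068 in KO Control, 47227 and 36576 in shRNA Control and 32428 in WT (log2 change -1.77 ± 0.24, limma adjusted p = 0.00425). RPL3 had 27346 to 57884 in JDP2 KO and 93330.0 to 160922 in the controls. RPL19, RPL35, RPS20 and RPS21 fell with log2 changes of -2.08, -1.35, -2.09 and -0.83. Ribosomal protein genes have many processed pseudogenes, so reads may be shared with copies elsewhere. RPL35 missed the threshold without JDP2 KO clone 1 replicate 2 (adjusted p = 0.0546).

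Growth and metabolism lists held few calls. The share called was 5.71% of MYC and ribosome biogenesis genes, 4.17% of glycolysis and hypoxia genes, 4.35% of NRF2 genes and 3.57% of p53 targets, against 3.93% of all tested genes. Of 39 cell cycle genes, 33 lysosome genes, 27 cholesterol and lipid synthesis genes and 33 apoptosis genes, 0 were called by limma, with medians of 0.06, -0.20, -0.13 and 0.05. With equal totals the cell cycle and apoptosis medians turned to -0.19 and -0.20, and without JDP2 KO clone 1 replicate 2 the lysosome median was 0.01. Of 35 MYC and ribosome biogenesis genes, ODC1, the first enzyme of polyamine synthesis, rose with 10445 to 14258 in JDP2 KO against 4383 to 9049.9 in the controls, and RRS1, a ribosome assembly factor, rose with 9129 to 13023 against 2931 to 7552. RRS1 missed the threshold without JDP2 KO clone 1 replicate 2 (limma adjusted p = 0.0530, against 0.0440 with it). Of 24 glycolysis and hypoxia genes, the isomerase GPI fell, with 10963 to 28302 in JDP2 KO and 29052 to 38391 in the controls. Among 23 NRF2 antioxidant genes, OSGIN1 rose, with 766 to 1438 in JDP2 KO and 329 to 809.6 in the controls, an overlap, and it missed the threshold with the GC trend removed (adjusted p = 0.135). Of 28 p53 targets, the DNA damage recognition gene DDB2 fell, with 389.7 to 659.6 in JDP2 KO and 981 to 1434 in the controls. The erythropoietin receptor EPOR had 89.6 to 354 in JDP2 KO and 371 to 825 in the controls. It was the only call among 6 erythroid and megakaryocyte genes (16.67%, against 3.93% of all tested genes). None of 8 epithelial and stromal genes was called by limma.

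Promoter windows of the called genes were searched for the letters that AP-1 proteins bind. The windows run from 250 bases before to 50 after the gene start in RefSeq on GRCh38.p14, which can differ from the GENCODE start behind the other gene coordinates given here. OSGIN1 starts at 83948282 in GENCODE, so its window lies inside that gene model. They were present for 125 of the 161 genes that rose, 282 of the 332 that fell and 10124 of the 12541 tested. The AP-1 letters TGANTCA, where N is any base and which read the same on both strands, stood in 8 of 125 windows of genes that rose (6.40%), in 20 of 282 of genes that fell (7.09%) and in 453 of 10124 tested windows (4.47%). The share over all 27305 windows of the table was 7.76%. The cAMP response element TGACGTCA, also the same on both strands, stood in 5 of 125 (4%), 9 of 282 (3.19%) and 333 of 10124 (3.29%), and in 1.98% of all windows. The motifs differ in length and cannot overlap as a single match. A match is a description of letters, not evidence of binding.
4 windows with a TGANTCA match were picked by hand from genes described above, the falls CSF1R and CD68 and the rises OSGIN1 and SEC61B. The falls RFX5, ATF6B and P4HTM and the rise CD226, also described above, hold a match too and are not shown. Capitals mark the match. The windows lie at chr5:150113316-150113615 (minus strand) for CSF1R, chr17:7579388-7579687 (plus) for CD68, chr16:83952990-83953289 (plus) for OSGIN1 and chr9:99222032-99222331 (plus) for SEC61B.
CSF1R: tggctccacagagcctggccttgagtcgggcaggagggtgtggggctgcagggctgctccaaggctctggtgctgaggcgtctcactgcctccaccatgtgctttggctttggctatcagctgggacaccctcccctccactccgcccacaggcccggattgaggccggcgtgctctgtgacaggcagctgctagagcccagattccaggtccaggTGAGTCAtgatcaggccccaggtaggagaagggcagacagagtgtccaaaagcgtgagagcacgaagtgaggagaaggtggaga
CD68: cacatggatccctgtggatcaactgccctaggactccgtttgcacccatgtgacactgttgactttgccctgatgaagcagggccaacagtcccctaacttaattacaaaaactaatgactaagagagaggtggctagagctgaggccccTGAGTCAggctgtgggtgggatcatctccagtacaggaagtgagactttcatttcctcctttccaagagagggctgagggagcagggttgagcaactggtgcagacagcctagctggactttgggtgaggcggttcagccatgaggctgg
OSGIN1: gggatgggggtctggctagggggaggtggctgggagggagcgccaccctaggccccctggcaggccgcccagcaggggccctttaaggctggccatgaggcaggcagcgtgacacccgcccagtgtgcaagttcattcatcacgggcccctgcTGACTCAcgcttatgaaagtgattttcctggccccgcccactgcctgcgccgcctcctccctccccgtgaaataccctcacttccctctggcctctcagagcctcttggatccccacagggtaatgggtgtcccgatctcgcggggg
SEC61B: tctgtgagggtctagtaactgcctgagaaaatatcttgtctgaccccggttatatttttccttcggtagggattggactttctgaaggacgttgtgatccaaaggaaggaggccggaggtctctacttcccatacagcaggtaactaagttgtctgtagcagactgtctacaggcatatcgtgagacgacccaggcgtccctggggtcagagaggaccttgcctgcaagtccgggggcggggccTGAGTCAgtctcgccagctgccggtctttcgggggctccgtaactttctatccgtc
Counted from the RefSeq start, the match begins 34 bases upstream in CSF1R, 100 in CD68, 97 in OSGIN1 and 6 in SEC61B. CSF1R, CD68 and SEC61B hold TGAGTCA and OSGIN1 holds TGACTCA, the same letters read on the other strand.

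Each clone was set against the same 5 controls. In clone 1, 250 genes were called (1.99%), 69 higher (0.55%) and 181 lower (1.44%). In clone 2, 102 were called (0.813%), 8 higher (0.0638%) and 94 lower (0.75%). The clones share their controls, so no overlap between these lists is given. Among the genes called in the pooled comparison, the median log2 change of those that fell was -1.36 in clone 1 and -1.16 in clone 2, and of those that rose 1.26 in clone 1 and 0.96 in clone 2. The clone 1 count was 5411 without its replicate 1, which leaves the library that stands apart, and 106 without its replicate 2. It was 60 and 72 when replicate 1 or 3 of shRNA Control was dropped, 73 without WT replicate 2, and 114 and 67 when replicate 1 or 2 of KO Control was dropped. The clone 2 count was 36 and 26 without its replicates 1 and 2, and 51, 49, 62, 65 and 61 without the 5 controls in the same order. Where 1 library of a clone remained, it was assumed to vary like the other groups.

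The clones differed strongly at a few genes. Between clone 2 and clone 1, 38 genes were called (0.303%), 11 higher (0.0877%) and 27 lower (0.215%) in clone 2, and CIITA was the only 1 of them also called in the pooled comparison. The count was 1959, 46, 25 and 19 without replicates 1 and 2 of clone 1 and replicates 1 and 2 of clone 2. POU4F1, a homeodomain factor, had 1.28 and 0 in clone 2 and 2012 and 2230.2 in clone 1, with the controls at 1317 to 2698. Its 2 reads in clone 2 against 3105 in clone 1 are 0.0390% of the clone 1 level (95% interval 0.00472% to 0.141%, exact Clopper-Pearson, counting error only). LRP3, a lipoprotein receptor relative, had 139 and 205 in clone 2 and 18169.8 and 64299.6 in clone 1, with the controls at 2278 to 11879. Clone 2 was below every control and clone 1 above every control.

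HDHD3 had 0 and 14.6 in clone 2 and 550.3 and 1111 in clone 1, EPS8L1 had 4.48 and 5.61 in clone 2 and 681 and 2008 in clone 1, and the potassium channel gene KCNG1 had 10.2 and 2.24 in clone 2 and 550.3 and 1911 in clone 1. LRP3 and EPS8L1 lie on chromosome 19, as do other genes called lower in clone 2. Some genes were instead lower in clone 1. PSTPIP2, an adaptor of the actin cytoskeleton, had 312 and 384 in clone 2 and 4.22 and 5.59 in clone 1, with the controls at 109 to 208. PTPRF, a receptor tyrosine phosphatase, had 1108 and 1337 in clone 2 and 32.7 and 37.3 in clone 1, with the controls at 908 to 1302. CSTPP1 had 359 and 415 in clone 2 and 10.5 and 22.4 in clone 1, and P3H3, a collagen prolyl hydroxylase, had 522 and 597 in clone 2 and 12.7 and 93.2 in clone 1. TIAM1, an exchange factor for RAC, had 137 and 141 in clone 2 and 5.27 and 18.6 in clone 1. The adjusted p of limma for the difference between clones was at most 0.0359 for these 10 genes, and P3H3 and TIAM1 missed the threshold without either replicate of clone 2 and with edgeR (adjusted p = 0.0505 for P3H3 and 0.0786 for TIAM1).

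**Figure D5:**
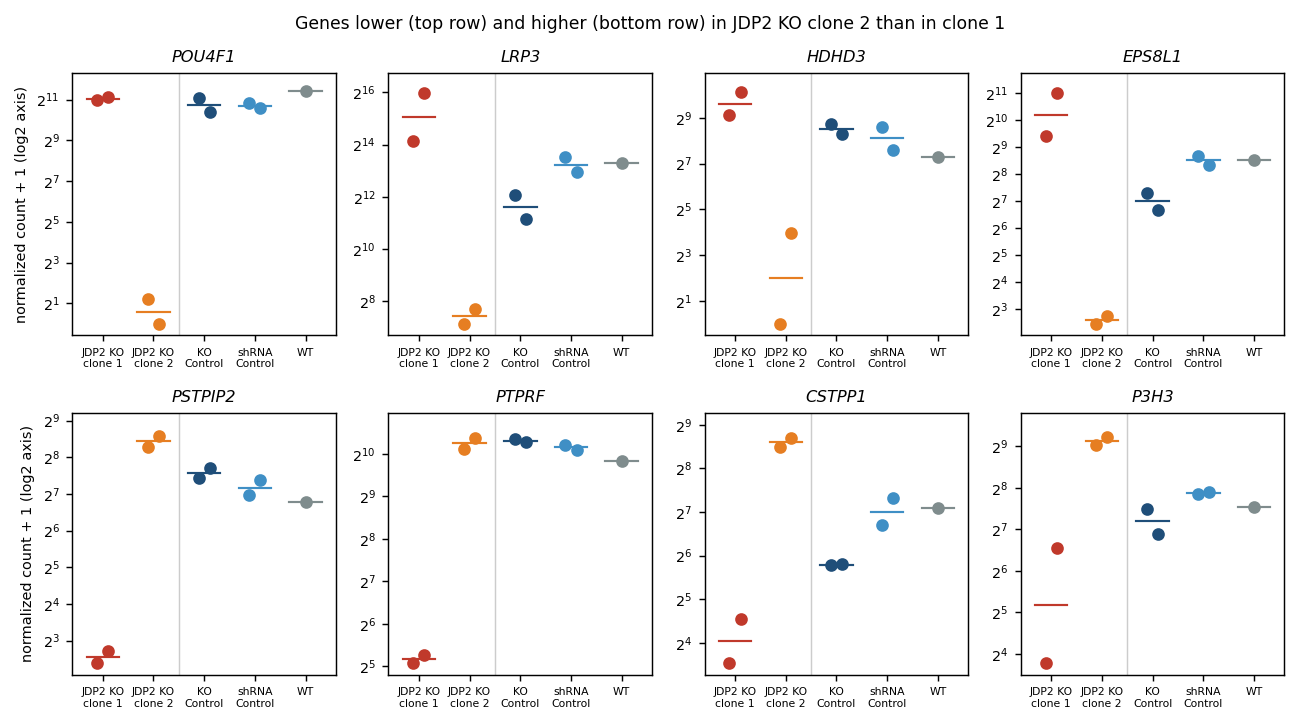
Normalized count + 1 (log2 axis) of 4 genes lower (top row) and 4 higher (bottom row) in JDP2 KO clone 2 than in clone 1, with 1 point per library and a line at the mean of the log2 values. POU4F1 has 1.28 and 0 in clone 2, and PSTPIP2 4.22 and 5.59 in clone 1, while the controls lie at 1317 to 2698 for POU4F1 and 109 to 208 for PSTPIP2.

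Set against the 4 libraries of ATF7 KO, edited at the heterodimer partner (2 clones of 2 libraries), JDP2 KO gave 0 called genes of 12986 by limma (0.0%), with 425 at an unadjusted p under 0.05. edgeR also called 0 and DESeq2 called 14. Of genes chosen after their values were seen, CCL5, at 610.4 to 822 in JDP2 KO, had 2377 and 1959 in ATF7 KO clone 1 and 547 and 929 in ATF7 KO clone 2. PRDX2, at 0 to 82.0 in JDP2 KO, had 38.8 and 41.2 in ATF7 KO clone 1 and 999 and 2021 in ATF7 KO clone 2. MMP9, at 1492 to 3297 in JDP2 KO, had 1480.2 and 1581 in ATF7 KO clone 1 and 367 and 569 in ATF7 KO clone 2. For these 3 genes 1 ATF7 KO clone lay in or near the JDP2 KO range and the other did not. GNA11, CERS1, PBX4 and OLFM2, also chosen so, were below every control in both libraries of ATF7 KO clone 1. In ATF7 KO clone 2 neither library was below every control for any of them. GNA11 had 38.8 and 44.5 in ATF7 KO clone 1 and 1571 and 1630 in ATF7 KO clone 2. CERS1 had 6.47 and 15.2 in ATF7 KO clone 1 and 716 and 951 in ATF7 KO clone 2. Other genes, also chosen after their values were seen, were low in both ATF7 KO clones. NLRP3 had 379 and 395 in ATF7 KO clone 1 and 439 and 462 in ATF7 KO clone 2. NDUFB4 had 2097 and 1789 in ATF7 KO clone 1 and 756 and 1246 in ATF7 KO clone 2. Every ATF7 KO library was below every control for both genes.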

How the data were processed

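Messenger RNA libraries were prepared from column-purified total RNA of THP1 cells, per the labels' protocols. For read processing, hg38, featureCounts and DESeq2 are named, per the submitters' processing notes. Which aligner, annotation and strand setting were used is not given in the sources used here. The authors deposited normalized counts, a signal per gene and library (reads divided by a size factor), for 20423 genes and 19 libraries. All values were whole multiples of 1 step per library within a tolerance of 0.01 (100% of 183807 values in the 9 libraries), so reads were recovered for edgeR 4.0.16 and DESeq2 1.42.0. The authors also deposited a comparison table with base means as a signal, log2 fold changes, Wald scores and p-values. In 100% of genes that Wald score and the fold change differ in sign, so directions follow the fold change.

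Values were taken as log2(normalized count + 1), which understates low genes' changes. Those averaging at least 10 were tested with limma 3.58.1 (R 4.3.3) with Benjamini-Hochberg adjustment, and a gene was called at an adjusted p under 0.05. The pooled fit held 4 JDP2 KO and 5 control libraries as 2 groups. It treated libraries as independent, though the 4 JDP2 KO libraries came from 2 clones and the controls were of 3 kinds. Its p-values and SE therefore take no account of libraries that share a clone. A second fit gave each clone its own group. GC content and coordinates came from GENCODE 29 on GRCh38, which matched 20244 of the 20423 names. Each fit was tested on simulated data. Figures were drawn with matplotlib 3.10.9.

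Named genes were JDP2, ATF7 and IRF2BP2, the 10 largest called rises and falls averaging at least 50 in one of the groups and with 1 sign across clones, for each list up to 3 called members (lowest p), and 5 genes in each direction between clones. Of list members without a call the rule takes the 2 highest. These were left out except for JUNB (also JDP2's partner), and lists without a call are given by counts and medians. All other called members of the unfolded protein response, AP-1, interferon and ribosomal lists were added, and further genes named for their values are said to be. CXCL8, CCL2, HSPA5, HSP90B1, CD74, HLA-DRB1, BATF3, BATF, IRF2BPL and IRF2BP1, without a call, were also named after their values were seen. Members and lists were chosen with earlier results of these data known.

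The 2 libraries labelled as low quality (shRNA Control replicate 2 and WT replicate 1) were not analysed here. Replicates differed beyond sampling noise (chi-square per gene 104 or more). The labels do not say that replicates came from separate cultures, so p-values reflect only how these libraries vary, which may be technical. Intervals cover counting error only.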

Additional observations from a re-analysis of the deposited data

Results flagged for a closer look

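Among 84 named genes in each of both groups, 168 checks for a library far from the others of its group gave 11 such values, where chance gives about 1 in 20. In JDP2 KO clone 1 replicate 2 these were ATF7 at 167.8, JUNB at 15524, ATF6B at 2008, PICK1 at 41.0, PBX4 at 11.2 and RPL10A at 18843 normalized counts. NBDY had 2.11 in JDP2 KO clone 1 replicate 1 and 0 in the other 3 JDP2 KO libraries. In the controls, KO Control replicate 1 stood apart for TIMP1 (12539), IFI35 (264) and CIITA (280.4), and KO Control replicate 2 for LMNA (10059).

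The clones differed from each other at 11 named genes, by limma's test of the difference. The log2 difference, clone 2 minus clone 1, was -10.46 for POU4F1, -7.65 for LRP3, -7.63 for HDHD3, -7.60 for EPS8L1, -7.41 for KCNG1, 2.09 for CIITA, 3.66 for TIAM1, 3.96 for P3H3, 4.56 for CSTPP1, 5.08 for PTPRF and 5.89 for PSTPIP2. Of the 38 genes called between the clones, 28 had log2 changes from the controls of opposite sign in the clones. In some of these 1 clone was near the controls. POU4F1, for example, had a log2 change of 0.20 in clone 1 and -10.25 in clone 2.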

How the results depend on the processing

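The pooled count of 493 became 227 with no filter on low values, 2011 with DESeq2, 4437 with array weights, 2674 with clone or kind of control as a random block, 2137 from 1 mean per clone and kind of control, 32 with KO Control alone, 24 with KO Control and WT, and 4 with shRNA Control alone. With the GC trend removed, an alternative chosen after seeing the data, it was 984, with 445 of the 493 among them. The clone 1 count of 250 became 99 with no filter, 676 with edgeR, 2006 with DESeq2, 528 with equal totals, 4 with array weights, 878 with the GC trend removed, 5 with KO Control alone, 9 with KO Control and WT, and 1 with shRNA Control alone. The clone 2 count of 102 became 322 with DESeq2, 931 with array weights, 22 with KO Control alone, 37 with KO Control and WT, and 18 with shRNA Control alone. Between clones the count of 38 became 22 with no filter, 73 with DESeq2 and 18 with array weights. Against ATF7 KO the count of 0 became 14 with DESeq2, 2 with quantile normalization and 52 with array weights. Leaving out 1 library gave 139 to 1186 pooled, 60 to 5411 in clone 1, 26 to 65 in clone 2, 19 to 1959 between clones and 0 to 1 against ATF7 KO. The share of higher calls, 32.7% of 493, was 3.13% with KO Control alone, 7.10% with the replicate block, 9.35% without KO Control replicate 2, 18.0% with equal totals, 50.3% with array weights, 55.3% with the random block, 57.6% from the means and 58.1% with DESeq2. The changes of IRF2BP2 (-0.086 with quantile normalization) and JDP2 (-0.014 with equal totals) turned sign without passing the test. No named call turned direction under the alternatives run for it, which were 24 or 25 for calls against the controls and 15 for calls between clones. Why the counts move was not tested.

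The labels tie no libraries by replicate number, so the numbers were not taken as pairs. Same-numbered deviations correlated at 0.323 between the clones, which leaves a shared replicate effect possible there, at 0.0481 between clone 1 and KO Control and at -0.124 between clone 2 and KO Control. With the replicate number as a block, 169 genes were called in the pooled comparison, 75 in clone 1, 61 in clone 2 and 25 between clones, where P3H3 lost its call (limma adjusted p = 0.0812).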
